A study of Mus musculus with 26 samples.

Results

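The 10 genes described here are 8 of the heat shock response, Hspb1, Hsp90aa1, Hspa8, Hspa1a, Hspa1b, Hsph1, Dnajb1 and Hsf1, and the cold-inducible Cirbp and Rbm3. They were taken by gene symbol from 22322 symbols with a value in 20 liver RNA-seq libraries, and each was read from its best expressed transcript. Both temperature-responsive families were followed across circadian time and clock genotype, as readouts of a body-wide temperature rhythm beside the clock of the liver itself. The Bmal1 experiment had 3 libraries in each of 4 groups: C57BL/6 controls and mice labelled Bmal1 knockout, described as liver-specific, each at CT0 and at CT12. The Nr1d1 experiment had 2 libraries in each of the same 4 groups, with C57BL/6 controls and mice labelled Nr1d1 knockout. All mice were 8 weeks old and had gone from a light-dark cycle into complete darkness before death, CT0 being the hour at which the lights used to come on. The labels name neither the Cre driver of the liver-specific deletion nor the kind of Nr1d1 allele, and the controls of each experiment are given by strain alone.

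Heat shock proteins are chaperones that hold or refold unfolded proteins, and the transcription factor HSF1 switches on the inducible ones when proteins unfold. CIRBP and RBM3 are RNA-binding proteins whose messages accumulate when temperature falls slightly. In mice, body temperature follows the cycle of activity and rest, so in liver some of these messages can cycle under body-wide cues while BMAL1 (gene Arntl), the activator of the clock, and REV-ERB alpha (gene Nr1d1), its repressor, drive the local clock.

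The promoter sequences of 6 of the 10 genes were matched by symbol in RefSeq (build GRCm38.p6, whereas the expression tables use mm9). They were Hspb1, Hspa1a, Hspa1b, Hsph1, Dnajb1 and Cirbp. The 250 bases before the annotated start are shown, 5′ to 3′, for the gene that differed most between genotypes (Hspb1), for the near-identical HSP70 pair, and for the pair of genes with the most strongly opposed levels (Hsph1 and Cirbp). Capitals mark matches to 2 facing heat shock units (GAANNTTC or TTCNNGAA), the mild cold response element TCCCCGCC or the E-box CACGTG, each on either strand.
Hspb1 (chr5:135887669-135887918, plus strand): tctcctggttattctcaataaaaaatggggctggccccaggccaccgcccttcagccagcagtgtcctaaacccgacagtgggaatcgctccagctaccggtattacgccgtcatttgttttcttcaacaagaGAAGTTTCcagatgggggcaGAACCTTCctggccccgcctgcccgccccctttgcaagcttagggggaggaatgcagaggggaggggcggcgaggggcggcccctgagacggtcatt
Hspa1a (chr17:34972157-34972406, minus strand): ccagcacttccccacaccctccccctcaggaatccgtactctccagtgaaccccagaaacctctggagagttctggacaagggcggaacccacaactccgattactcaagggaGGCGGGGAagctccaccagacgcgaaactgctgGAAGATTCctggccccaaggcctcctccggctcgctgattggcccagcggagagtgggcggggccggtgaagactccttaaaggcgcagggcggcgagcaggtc
Hspa1b (chr17:34959239-34959488, minus strand): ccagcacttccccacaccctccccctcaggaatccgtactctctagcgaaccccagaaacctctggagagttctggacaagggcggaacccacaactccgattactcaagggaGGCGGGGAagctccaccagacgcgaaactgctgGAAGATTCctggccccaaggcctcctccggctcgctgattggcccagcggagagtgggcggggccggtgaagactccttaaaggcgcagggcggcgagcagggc
Hsph1, second of its 2 windows (chr5:149636316-149636565, minus strand): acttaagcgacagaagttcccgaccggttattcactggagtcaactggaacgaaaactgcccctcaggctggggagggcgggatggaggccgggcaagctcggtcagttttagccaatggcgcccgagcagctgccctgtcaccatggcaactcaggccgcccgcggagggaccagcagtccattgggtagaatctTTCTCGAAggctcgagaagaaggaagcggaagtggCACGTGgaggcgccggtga
Cirbp, first of its 2 windows (chr10:80167589-80167838, plus strand): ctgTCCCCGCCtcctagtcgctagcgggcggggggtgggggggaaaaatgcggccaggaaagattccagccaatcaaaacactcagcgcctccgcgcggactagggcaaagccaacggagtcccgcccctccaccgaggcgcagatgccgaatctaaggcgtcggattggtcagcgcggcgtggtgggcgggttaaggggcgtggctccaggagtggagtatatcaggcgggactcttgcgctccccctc
Hspb1, the gene of a small heat shock protein that binds unfolding proteins (also called HSP27), held 2 matches to GAANNTTC, 117 to 110 and 97 to 90 bases before the start. Among all 32851 windows of the same length, 6.69% held that motif and 7.17% held TTCNNGAA. The windows of Hspa1a and Hspa1b differed at 3 of 250 bases, and both held GAANNTTC and, in reverse, the mild cold response element, which 4.64% of all windows held. Hsph1 held TTCNNGAA in both of its overlapping windows and an E-box 19 to 14 bases before its second start, a motif held by 6.02% of all windows. Cirbp held the mild cold response element 247 to 240 bases before its first start. The 3-unit heat shock element, in which both 2-unit forms overlap, was in 0.466% of all windows and in none of these. Neither window of Dnajb1 held any of the motifs. These matches describe the letters only.

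Levels are in RPKM as deposited, that is, reads divided by transcript length and by library depth. Whole reads could be recovered, as the smallest whole numbers that fit, for 17407 of 19183 genes, and their sums were 1.75 M to 2.90 M per library (M, in units of 1e6) in the Bmal1 experiment, 5.23 M to 7.63 M in replicate 1 of the Nr1d1 experiment and 26.3 M to 54.7 M in its replicate 2. Replicate 2 of the Nr1d1 experiment, the only one described as paired-end, carried RPKM sums of 2099300 to 2211100 over all genes, against 588420 to 875420 in replicate 1, so that its values were compared only within a replicate number. In the Bmal1 experiment Arntl was at 16.4, 15.7 and 15.7 RPKM in controls at CT0 and at 5.92, 5.73 and 7.45 in livers labelled knockout, but at CT12 it was at 1.26, 0.68 and 1.21 in controls and higher, at 4.37, 3.59 and 4.01, in livers labelled knockout. In the Nr1d1 experiment Nr1d1 was at 0.37 RPKM in the control and 6.1 in the library labelled knockout at CT0 of replicate 1. The values were 21.97 and 32.9 at CT0 of replicate 2, 3.45 and 11.07 at CT12 of replicate 1, and 33.42 and 28.4 at CT12 of replicate 2. RPKM over a whole transcript does not show whether part of it is deleted, so the genotypes are those of the labels throughout. The hepatocyte markers Alb, Apoa1, Apoc3, Ttr, Serpina1c, Cps1, Tat, Pck1 and Fgb were above 0 in all 20 libraries.

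Hspb1 was lower in livers labelled Bmal1 knockout at both times, and in the fit of all 4 groups no other gene of the 10 passed the test in either genotype comparison of that experiment. At CT0 it was at 6.04, 12.4 and 8.72 RPKM in controls (mean 9.05 ± 3.20, SD, n = 3) and at 2.08, 1.09 and 1.93 RPKM in livers labelled knockout (1.70 ± 0.53). All 3 control values lay above all 3 knockout values. The difference was -2.10 ± 0.33 (SE) on the log2(RPKM + 0.5) scale, 4.27-fold lower, with an adjusted p of 0.00788 by limma over all 11439 genes tested. Hspb1 was thus 1 of 9 genes tested here that were called at CT0, against 1.62% of all genes called in either direction and 0.708% called lower. It was called under all 16 alternative settings, with differences from -2.47 to -1.85 and adjusted p from 0.00585 to 0.0427. The reads behind these values were 103 to 213 per control library and 14 to 28 per library labelled knockout.

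At CT12 Hspb1 was at 6.52, 6.18 and 3.88 RPKM in controls (5.53 ± 1.44, SD, n = 3) and at 0.92, 2.76 and 1.78 RPKM in livers labelled Bmal1 knockout (1.82 ± 0.92). The groups again did not overlap. The fall was -1.43 ± 0.33 on the log2(RPKM + 0.5) scale (limma adjusted p = 0.0169), and Hspb1 was 1 of 9 called, against 9.68% of all genes in either direction and 3.22% lower. This call was lost without control replicate 1 at CT12 (adjusted p = 0.0629), control replicate 2 at CT12 (0.0577) or knockout replicate 1 at CT12 (0.0586), with differences from -1.34 to -1.11, and over all 15 alternatives the adjusted p ran from 0.00992 to 0.0629. Between CT0 and CT12 Hspb1 differed by -0.64 ± 0.33 in controls (limma adjusted p = 0.241) and by 0.03 ± 0.33 in livers labelled knockout (0.975), and neither passed. The interaction of genotype and time was 0.67 ± 0.46 (adjusted p = 0.626), so a genotype difference that depends on time was not shown. In bulk liver, fewer cells of a type and less RNA per cell cannot be told apart. Of the 9 hepatocyte markers, Alb, the gene of serum albumin, was lower in livers labelled knockout at both times (32700 to 37900 RPKM against 17300 to 21200 at CT0, and 26600 to 34300 against 14000 to 16400 at CT12), and limma called it in both comparisons. The other 8 summed to 17300 to 18500 RPKM in controls and 16100 to 18600 in livers labelled knockout at CT0, where none was called, and to 14900 to 16300 and 17000 to 19900 at CT12, where Fgb alone was called, higher. The 8 neutrophil markers summed to 32.3 to 112 RPKM in controls and 104 to 220 in livers labelled knockout at CT0, where none of the 7 tested was called. At CT12 they summed to 5.94 to 8.80 and 18 to 46.3 RPKM, with S100a8 and S100a9 called higher (2 of 7). The 7 erythroid markers summed to 138 to 328 and 179 to 192 RPKM at CT0 and to 95.3 to 169 and 208 to 259 at CT12, where Hbb-b2 was called higher (1 of 4 tested, and none at CT0). No Kupffer cell, endothelial or stellate marker was called at either time. Those higher in livers labelled knockout were 3 of 8, 7 of 8 and 7 of 9 at CT0, in that order. At CT12 they were 8 of 8, 7 of 8 and 6 of 9. The part of any of these markers in the Hspb1 differences was not tested.

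**Figure D1:**
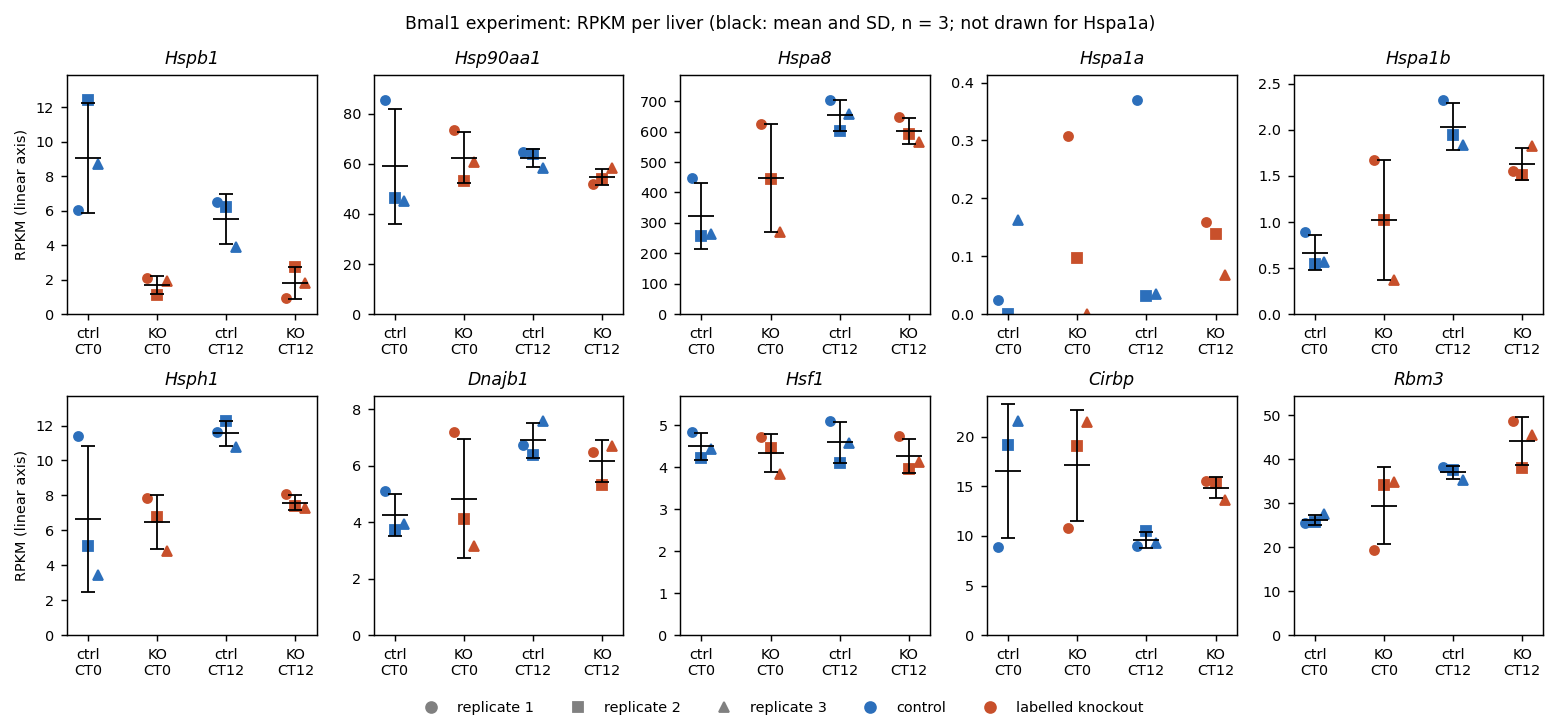
RPKM of the 10 genes in the 12 livers of the Bmal1 experiment, with a linear axis from 0 in each panel; points are livers, coloured by genotype label and shaped by replicate number, and black bars give mean and SD (n = 3), which are not drawn for Hspa1a because it is listed at 0 in 2 libraries. Hspb1 lies lower in all livers labelled knockout. For Hsp90aa1, Hspa8, Hspa1b, Hsph1, Dnajb1 and Hsf1 the replicate 1 livers at CT0 (circles) are the highest CT0 livers of their genotype.

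Among the HSP70 chaperones, Hspa8 and Hspa1b rose from CT0 to CT12 in the controls of the Bmal1 experiment. Hspa8, the constitutive HSC70 and by far the highest of these genes per kilobase, was at 448, 256 and 264 RPKM at CT0 (322 ± 109, SD, n = 3) and at 703, 601 and 657 at CT12 (654 ± 51.1). The lowest CT12 liver exceeded the highest CT0 liver. The difference was 1.07 ± 0.27 on the log2 scale (limma adjusted p = 0.0269). Hspa1b, 1 of the 2 stress-inducible HSP70 genes, was far lower per kilobase, at 0.89, 0.54 and 0.57 RPKM at CT0 (0.67 ± 0.19) and 2.32, 1.94 and 1.84 at CT12 (2.03 ± 0.26). Its groups did not overlap either, with a difference of 1.13 ± 0.27 (adjusted p = 0.0207). These 2 of 9 genes compare with 10.8% of all genes called in either direction and 3.4% called higher.

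Each call was lost in 4 of the 6 fits that left out 1 liver. Without control replicate 2 or 3 at CT0, or control replicate 1 or 3 at CT12, Hspa8 had limma adjusted p of 0.0977, 0.0952, 0.0807 and 0.0762, and Hspa1b of 0.0738, 0.0687, 0.0697 and 0.0506 (range over 16 alternatives 0.00653 to 0.0738). With each of the 6 livers left out in turn the differences themselves stayed between 0.92 and 1.33 for Hspa8 and between 1.05 and 1.26 for Hspa1b. Hspa8 also missed the threshold with no filter on low values (adjusted p = 0.0522, range over 16 alternatives 0.00167 to 0.0977). In livers labelled Bmal1 knockout the levels at CT0 were scattered: Hspa8 was at 626, 445 and 270 RPKM at CT0 and 649, 591 and 566 at CT12. Hspa1b was at 1.68, 1.03 and 0.37 RPKM at CT0 and 1.56, 1.51 and 1.83 at CT12 there. The time differences in those livers were 0.51 ± 0.27 for Hspa8 (limma adjusted p = 0.324) and 0.58 ± 0.27 for Hspa1b (0.263). The interactions, -0.56 ± 0.38 (95% confidence interval -1.38 to 0.27, adjusted p = 0.618) and -0.55 ± 0.38 (-1.37 to 0.27, 0.62), did not show that the genotypes differed in their change over time.

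Hspa1a, the near-identical neighbour of Hspa1b, fell under the filter of a mean of 0.5 RPKM in the Bmal1 experiment and was not tested there. It was listed at 0 in 1 control and 1 knockout library at CT0, and its highest value was 0.37 RPKM, in control replicate 1 at CT12. Its recovered reads numbered 0 to 13 per library. As a share of Hspa1b it stood at 0 to 28.6% in the Bmal1 libraries and at 61.6 to 78.6% in the Nr1d1 libraries. How reads shared by the 2 copies were assigned is not given in the sources used here, so the split between them is uncertain. In the text below, RPKM values are given for Hspa1b alone. Counts that include the Nr1d1 experiment hold both copies, which cannot be read as 2 separate genes.

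The co-chaperones were higher at CT12 than at CT0 in controls without passing the test. Hsph1, the HSP110 that releases ADP from HSP70, was at 11.4, 5.13 and 3.45 RPKM at CT0 and 11.6, 12.2 and 10.8 at CT12 in controls, a difference of 0.91 ± 0.31 (limma adjusted p = 0.0804). Its replicate 1 at CT0 lay within the CT12 range and the other 2 far below it. Leaving out that liver gave 1.35 ± 0.19 (adjusted p = 0.00229), the range over 16 alternatives being 0.00149 to 0.25. In livers labelled knockout Hsph1 was at 7.86, 6.76 and 4.80 RPKM at CT0 and 8.08, 7.37 and 7.28 at CT12. At CT12 all 3 of these lay below all 3 controls, with a difference of -0.58 ± 0.31 that did not pass (adjusted p = 0.283) in the fit of all 4 groups and did pass with the 2 compared groups alone (0.0136, range 0.0136 to 0.434).

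Dnajb1, the HSP40 partner that stimulates HSP70's ATPase, was at 5.12, 3.74 and 3.95 RPKM at CT0 and at 6.74, 6.38 and 7.58 at CT12 in controls. The ranges did not overlap, and the difference was 0.64 ± 0.22 (limma adjusted p = 0.089). In livers labelled knockout it was at 7.20, 4.13 and 3.16 RPKM at CT0 and 6.50, 5.34 and 6.69 at CT12, with overlap. Hsp90aa1, the inducible cytosolic HSP90, was at 85.4, 46.4 and 45.0 RPKM in controls at CT0 and 64.8, 63.8 and 58.1 at CT12, so its replicate 1 at CT0 was the highest of all 12 livers. The time difference was 0.14 ± 0.20 in controls (adjusted p = 0.71) and -0.18 ± 0.20 in livers labelled knockout (0.688), where values ran from 52.1 to 73.4 RPKM. Hsf1, the gene of the heat shock factor itself, stayed between 3.85 and 5.10 RPKM in all 12 livers. Its differences between pairs of groups were at most 0.09 in size on the log2 scale, and each 95% confidence interval for a pair of groups lay within -0.35 and 0.28.

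Of the 2 cold-inducible genes, neither passed a test in the Bmal1 experiment when all 12 livers were fitted together. Cirbp was at 8.88, 19.1 and 21.5 RPKM in controls at CT0 and at 8.94, 10.5 and 9.34 at CT12, so 2 of the 3 CT0 livers held about double the CT12 level and replicate 1 did not. The difference was -0.67 ± 0.30 and did not pass (limma adjusted p = 0.175). Without control replicate 1 at CT0 it was -1.05 ± 0.23 (adjusted p = 0.0202, range over 16 alternatives 0.000445 to 0.446). In livers labelled knockout Cirbp was at 10.8, 19.1 and 21.4 RPKM at CT0, almost the control values, and at 15.6, 15.4 and 13.7 at CT12. All 3 knockout values at CT12 lay above all 3 controls, by 0.61 ± 0.30 (adjusted p = 0.235). This passed with the 2 compared groups alone (0.0124, range 0.0124 to 0.396).

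All Rbm3 values at CT12 lay above all those at CT0 in each genotype, but neither difference passed. It was at 25.4, 25.7 and 27.5 RPKM at CT0 and 38.2, 37.6 and 35.3 at CT12 in controls, with little scatter in either group. The ranges were clear of each other, yet the difference of 0.49 ± 0.18 missed the threshold (limma adjusted p = 0.107) in the fit of all 4 groups, and passed with the 2 control groups alone (0.0103, range 0.0103 to 0.22). In livers labelled knockout Rbm3 was at 19.5, 34.0 and 34.9 RPKM at CT0 and at 48.6, 38.0 and 45.5 at CT12. These ranges did not overlap, and the difference was 0.61 ± 0.18 (adjusted p = 0.106). Rbm3 was the 1 gene of 9 under an unadjusted p of 0.05 in that comparison, in which limma called none of the 9 and 1.9% of all genes. For the interaction limma called none of the 9, none had an unadjusted p under 0.05, and 1.31% of all genes were called.

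Ordered by level per kilobase in controls at CT0, Hspa8 stood first, followed by Hsp90aa1 (59.0 ± 22.9 RPKM, SD, n = 3), Rbm3 (26.2 ± 1.14), Cirbp (16.5 ± 6.73), Hspb1, Hsph1 (6.66 ± 4.18), Hsf1 (4.50 ± 0.32), Dnajb1 (4.27 ± 0.74), Hspa1b and Hspa1a. The ranges of Rbm3 and Cirbp did not overlap, whereas from Cirbp to Dnajb1 the range of each gene overlapped that of the next. At CT12 in controls Hsph1 (11.6 ± 0.73) stood above Cirbp (9.58 ± 0.79).

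The CT0 livers numbered 1 were the highest of their group for most heat shock genes in both genotypes. Over time in controls, the missed thresholds of Hsph1 and Cirbp depended on the control liver among them, and the calls of Hspa8 and Hspa1b did not. Among the 7 heat shock genes tested, 6 were highest in replicate 1 of the 3 CT0 livers both in controls and in livers labelled Bmal1 knockout, against 16.8% of all genes tested; the exception was Hspb1 in controls. Of the 61 wider chaperone genes described below, 24 were highest in replicate 1 of the CT0 livers in both genotypes (39.3%) and 2 lowest. Replicate 3 of the CT0 livers was lowest in both genotypes for 17 of the 61 (27.9%), against 12.4% of all genes tested. It was lowest for 1 of the 7 heat shock genes. In livers labelled knockout the CT0 values were graded, as for Hspa8 at 626, 445 and 270 RPKM in replicates 1, 2 and 3. At CT12 replicate 1 was highest in both genotypes for 2 of the 7. With both CT0 livers numbered 1 left out, a choice made after seeing these same genes and so no support for any of them, limma called 7 of the 9 over time in controls: Hspa8, Hspa1b, Hsph1 (1.35 ± 0.17), Dnajb1 (0.77 ± 0.15), Hsp90aa1 (0.44 ± 0.09) and Rbm3 (0.47 ± 0.11) higher at CT12, and Cirbp lower (-1.05 ± 0.11, adjusted p = 0.000445). It still called Hspb1 alone between genotypes at CT0, and none over time in livers labelled knockout.

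**Figure D2:**
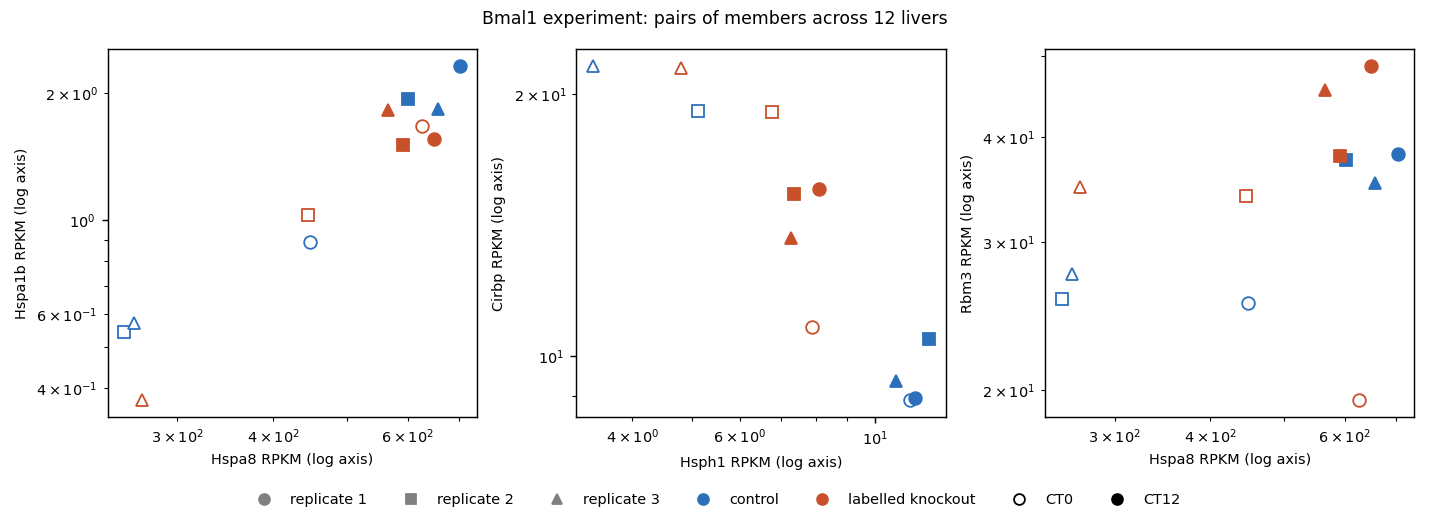
Hspa1b against Hspa8, Cirbp against Hsph1 and Rbm3 against Hspa8, in RPKM on log axes, for the 12 livers of the Bmal1 experiment (colour: genotype label; shape: replicate number; open: CT0; filled: CT12). The open circles, replicate 1 at CT0, lie toward the CT12 livers in the first 2 panels and below the other CT0 livers or level with them in Rbm3.

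Across the 12 livers, Pearson's r of log2 values was 0.96 between Hspa8 and Hspa1b, 0.92 between Hspa8 and Dnajb1 and -0.91 between Hsph1 and Cirbp, but 0.05 between Cirbp and Rbm3. For Hspb1 r with the other 8 lay between -0.41 and 0.09. These values describe 12 livers that share 4 groups and the pattern of the replicate 1 livers, and are given with no test. Of all 11438 other genes tested, those most like Hspa8 were Hspa1b, Ppat (0.93), Dnajb1, Dnaja1 (0.92) and Mbd1 (0.92), so that 3 of the 5 were chaperone genes. Those most like Hspb1 were Aldh2 (0.93), Proca1 (0.92), Chdh (0.91), Aplp2 (0.90) and 5031439G07Rik (0.88), none of them a chaperone gene on the lists used here. Obfc1 (0.93), Ano1 (0.92), Wdr59 (0.89), C130074G19Rik (0.89) and Kdm3a (0.88) were most like Cirbp. Rbm3 was most like Eif4b (0.93), Ldb1 (0.91), Il1r1 (0.91), Pla2g12a (0.90) and Scara5 (0.89), and Hsp90aa1 most like Yipf6 (0.89), Hyal3 (0.87), Copg (0.86), Ostc (0.85) and Mtmr7 (0.85).

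In the Nr1d1 experiment Hspb1 had the largest difference of the 10 genes in both genotype comparisons and over time in controls, where it fell from CT0 to CT12. In replicate 1 it was at 12.5 RPKM in the control at CT0 and 3.14 at CT12, and at 2.09 and 1.83 in the livers labelled Nr1d1 knockout. In replicate 2 the same 4 livers stood at 74.6, 25.5, 18.3 and 10.2 RPKM. The order of the 4 groups was the same in both replicates. The fall in controls was -1.68 ± 0.22 with the replicate number as a block (limma adjusted p = 0.0234 over 12738 genes), and Hspb1 was 1 of 10 called, against 0.353% of all genes in either direction and 0.181% lower. The call was lost without either control liver of replicate 1 (adjusted p = 0.232 without CT0, 0.241 without CT12) or of replicate 2 (0.127 and 0.0858), with no filter on low values (0.208) and with no replicate block (1). The difference ran from -1.86 to -1.53 in these and the other alternatives, and the adjusted p from 0.00693 to 1.

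Against the controls, Hspb1 in livers labelled Nr1d1 knockout differed by -2.16 ± 0.22 at CT0, or -2.32 and -2.00 in the 2 replicates, and by -0.96 ± 0.22 at CT12, or -0.65 and -1.28. Neither passed (limma adjusted p = 0.0686 and 0.453), although the first had the second smallest p of all genes tested and passed with the 2 compared groups alone (0.00592, range over 13 alternatives 0.00592 to 1). At CT0 limma called none of the 10 and 0% of all genes, while 5 of the 10 had an unadjusted p under 0.05, all lower, against 4.51% of all genes. At CT12 it called none of the 10 and 0.0393% of all genes, with Hspb1 alone under an unadjusted p of 0.05 (0.00243). The CT0 comparison and the change over time in controls share the 2 control livers at CT0, which were the highest for Hspb1, so they are not independent. No cell marker was called between Nr1d1 genotypes. At CT0, 8 of 8 Kupffer cell, 4 of 4 erythroid, 3 of 4 neutrophil, 5 of 9 hepatocyte, 2 of 8 endothelial and 3 of 9 stellate markers were higher in livers labelled knockout. At CT12 these were 8 of 8, 4 of 4, 3 of 4, 6 of 9, 8 of 8 and 9 of 9. Their part in the Hspb1 differences was not tested.

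The other 4 of those 5 genes were Hsp90aa1, Hsph1, Hspa1a and Hspa1b. Hsp90aa1 was at 50.6 RPKM in the control and 30.8 in the liver labelled knockout at CT0 of replicate 1, and at 122 and 52.3 in replicate 2, a difference of -0.96 ± 0.19 (limma adjusted p = 0.873). At CT12 its values were 35.6 and 37.6, and 72.7 and 77.1, within 0.09 of each other on the log2 scale. Hspa1b was at 4.19 and 1.10 RPKM at CT0 and 0.83 and 1.14 at CT12 in replicate 1, and at 27.7 and 17.0, then 13.2 and 18.9, in replicate 2. It was thus lower in the knockout-labelled liver at CT0 and higher at CT12 in both replicates. The genotype difference was -1.12 ± 0.26 at CT0 (adjusted p = 0.873) and 0.40 ± 0.26 at CT12 (1). Hsph1 differed by -0.94 ± 0.35 at CT0 (0.873) and Hspa1a by -0.98 ± 0.29 (0.873). The interaction of genotype and time was 1.20 ± 0.31 for Hspb1, 1.04 ± 0.27 for Hsp90aa1, 1.55 ± 0.41 for Hspa1a and 1.52 ± 0.37 for Hspa1b. These 4 of 10 had an unadjusted p under 0.05, against 4.22% of all genes, and limma called none of the 10 and 0% of all genes (adjusted p = 0.931 for each). For each of these genes the control liver at CT0 was the highest in its replicate. The CT0 differences and the interactions share those control livers, so they are not independent, either between comparisons or between genes.

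**Figure D3:**
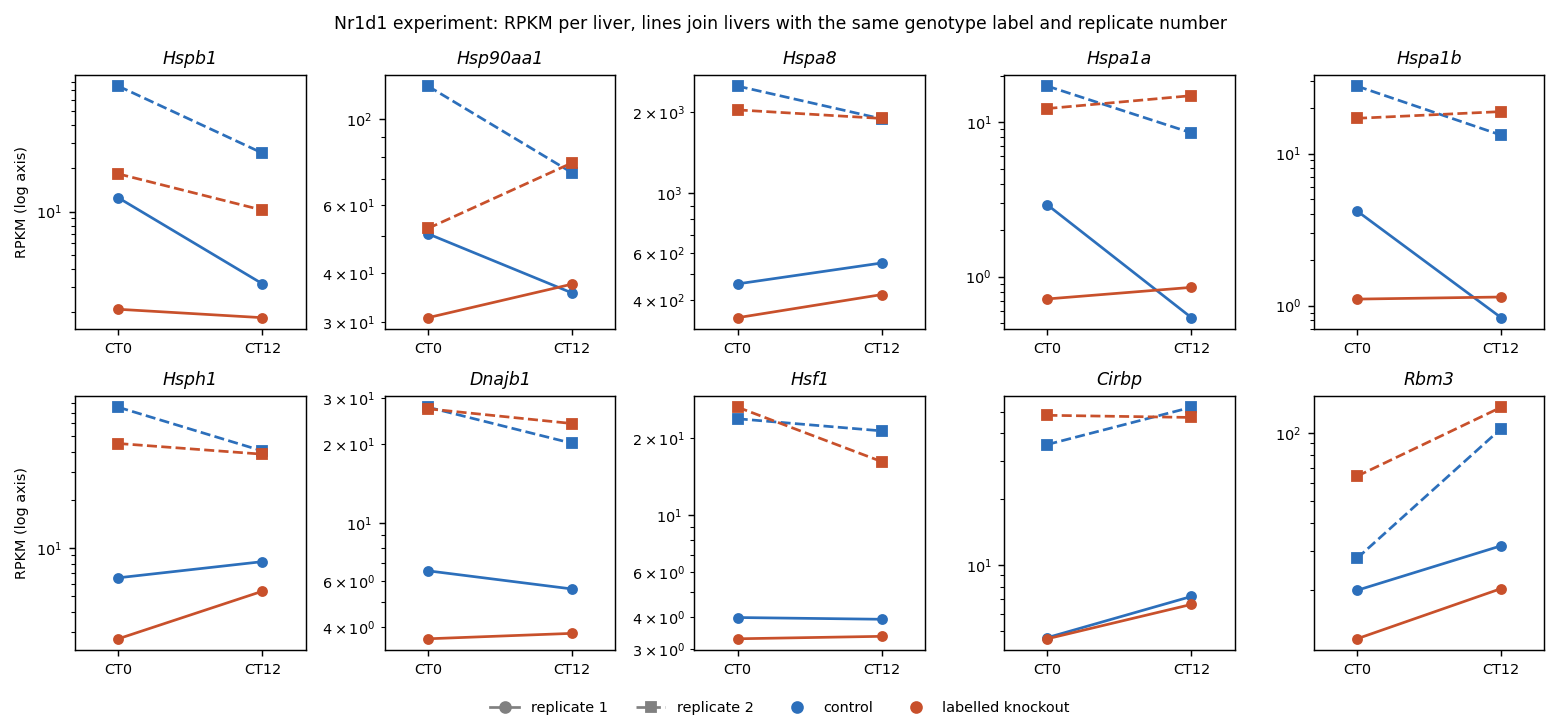
RPKM on a log axis at CT0 and CT12 in the 8 livers of the Nr1d1 experiment; each line joins the livers with 1 genotype label and 1 replicate number (circles and solid lines, replicate 1; squares and dashed lines, replicate 2). The control lines of Hspb1, Hsp90aa1, Hspa1a and Hspa1b slope down in both replicates, and those of Rbm3 slope up.

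Hspa8 in the Nr1d1 controls was at 461 RPKM at CT0 and 551 at CT12 in replicate 1 but at 2504 and 1891 in replicate 2, so the replicates disagreed in sign and the difference was -0.07 ± 0.24. Hsph1 did the same, at 6.52 and 8.23, then 75.7 and 40.4 RPKM. Dnajb1 and Hsf1 differed over time by at most 0.33 in size in either genotype and passed no test. Cirbp was at 4.69 RPKM at CT0 and 7.22 at CT12 in replicate 1 of the controls and at 35.6 and 52.6 in replicate 2, a difference of 0.57 ± 0.20 (limma adjusted p = 0.493). Rbm3 was at 20.0 and 31.5 RPKM in replicate 1 and 27.7 and 104.7 in replicate 2 of the controls, a difference of 1.27 ± 0.46 (0.501). In livers labelled Nr1d1 knockout Rbm3 was at 12.2 and 20.3, then 64.3 and 130.3 RPKM, higher at CT12 in both replicates again (0.87 ± 0.46, 0.423). In that last comparison limma called none of the 10, none had an unadjusted p under 0.05, and 0.055% of all genes were called. The median over all genes there was 0.16 as deposited and 0.01 after scaling by trimmed means of M values (TMM), under which the differences of Hspa8 and Hspa1b, 0.09 each as deposited, changed sign.

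Between the experiments, the controls' change from CT0 to CT12 had opposite signs for several genes. It was 1.13 against -1.43 for Hspa1b, 0.64 against -0.33 for Dnajb1, -0.67 against 0.57 for Cirbp, and 0.14 against -0.62 for Hsp90aa1. Hspa8 (1.07 against -0.07) and Hsph1 (0.91 against -0.29) had opposite signs too, but their 2 Nr1d1 replicates disagreed in sign. Hsf1 was near 0 in both (0.03 against -0.09). In a fit of all 20 libraries, added after these values were seen, the difference for Hspa1b was 2.56 ± 0.41 (95% confidence interval 1.67 to 3.44, unadjusted p = 1.84e-05, limma adjusted p = 0.192 over 12331 genes). None of the 10 was called, against 0% of all genes, and 8 of the 10 had an unadjusted p under 0.05, compared with 8.75% of all genes. The 8 include Hspa1a, which passed the filter of this fit only through its Nr1d1 values and fell under it in the Bmal1 experiment. They also count Hspa1a and Hspa1b separately, so this count is no support for a difference. Hspa1b alone passed when control replicate 2 at CT0 of the Nr1d1 experiment was left out (2.99, adjusted p = 0.026, range over 17 alternatives 0.026 to 0.525). Rbm3 was higher at CT12 in both experiments (0.49 and 1.27), and its difference of -0.78 ± 0.48 did not pass (0.653). Experiment, mouse cohort and read depth cannot be told apart in this comparison. Recovered reads were 1.75 M to 2.90 M per Bmal1 library and 5.23 M to 54.7 M per Nr1d1 library. Only replicate 2 of the Nr1d1 experiment was described as paired-end. In replicate 1 of its controls the change was -1.81 for Hspa1b, -0.213 for Dnajb1, 0.574 for Cirbp and -0.501 for Hsp90aa1. In replicate 2 it was -1.04, -0.449, 0.558 and -0.738, in that order. The part of library layout or depth in these changes was not tested.

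**Figure D4:**
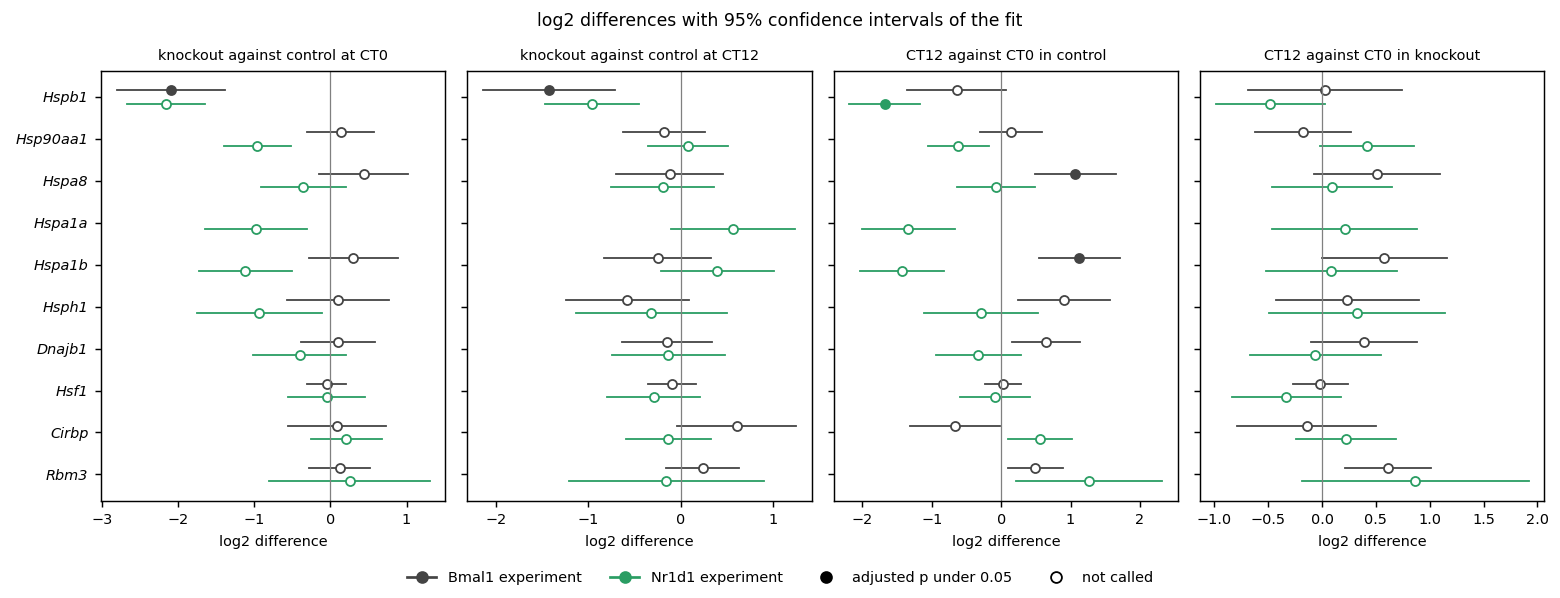
log2 differences of log2(RPKM + 0.5) with 95% confidence intervals for the 10 genes in 4 comparisons, Bmal1 experiment in grey and Nr1d1 experiment in green; filled points have an adjusted p under 0.05, and Hspa1a was not tested in the Bmal1 experiment. Hspb1 lies left of 0 in both genotype comparisons of both experiments. In the control time comparison the 2 experiments lie on opposite sides of 0 for Hspa1b, Cirbp, Dnajb1, Hsp90aa1, Hspa8, Hsph1 and Hsf1.

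Other chaperone genes came from 8 lists of 68 genes: relatives and partners of HSF1, other HSP70 and HSP110 genes, HSP90 with its co-chaperones, J-domain proteins, HSP70 exchange factors, other small heat shock proteins, the cytosolic chaperonin TRiC and mitochondrial chaperones. Of 61 tested in the Bmal1 experiment, 5 rose from CT0 to CT12 in controls and 1 fell, so that the 6 called compare with 10.8% of all genes called in either direction, and the 5 risers with 3.4% called higher. The median was 0.09 against -0.08 over all genes. The risers were the J-domain genes Dnaja1 (0.76 ± 0.21, limma adjusted p = 0.0385), Dnajb6 (0.74 ± 0.12), Dnajb4 (0.45 ± 0.13) and Dnaja2 (0.44 ± 0.09) and the chaperonin subunit Tcp1 (0.41 ± 0.08). Ier5, an immediate-early gene whose product acts on HSF1, fell by 0.64 ± 0.17. Between genotypes none of the 61 was called at CT0, against 1.62% of all genes, and 4 were called at CT12, against 9.68%. At CT12 Ier5 (0.82 ± 0.17) and Dnaja4 (0.99 ± 0.26) were higher and Dnajb6 (-0.60 ± 0.12) and Tcp1 (-0.48 ± 0.08) lower in livers labelled knockout. Over time in those livers Dnaja3 rose by 0.39 ± 0.09 and Hspa4l fell by 0.69 ± 0.15, these 2 of 61 comparing with 1.9% of all genes. Tcp1 was the 1 gene with a called interaction (-0.56 ± 0.11), against 1.31% of all genes. Dnajb6 was at 20.7, 20.3 and 19.0 RPKM in controls at CT0, with replicate 1 level with the others, and at 37.2, 30.3 and 34.1 at CT12. None of the 63 tested in the Nr1d1 experiment was called in any comparison by limma. With 2 libraries a group there, a missed threshold does not show that a gene did not differ.

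Clock genes of the same libraries give a scale. In the Bmal1 controls Arntl fell by 3.43 ± 0.16, Dbp rose by 3.98 ± 0.29 and Per2 by 2.59 ± 0.20 from CT0 to CT12, and their interactions with genotype (2.82 ± 0.22, -2.62 ± 0.41 and -2.13 ± 0.29) passed the test (limma adjusted p = 0.000149, 0.00911 and 0.00361). Of 14 clock genes, 8 had a called interaction, against 1.31% of all genes. At that background, a count of none among the 9 temperature-responsive genes tested is not a result about them. The interval of the Rbm3 interaction ran from -0.44 to 0.68 and that of Hspb1 from -0.34 to 1.68. Over time in controls Rbm3 and Hspb1 changed by only 0.49 and -0.64, far less than these 3 clock genes. Even a full loss of such changes would give a smaller interaction than theirs, so the sizes cannot be compared to decide whether Rbm3 or Hspb1 depends on genotype. The immediate-early genes Fos and Egr1 differed over time in controls by -0.56 ± 0.32 (limma adjusted p = 0.289) and -1.57 ± 0.38 (0.0228). Of the 12 immediate-early genes tested there, 4 were higher and 8 lower at CT12. Egr1 was the 1 called, against 10.8% of all genes.

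Markers of other liver cells moved over time too. In the Bmal1 controls the 8 neutrophil markers gave summed levels of 32.3 to 112 RPKM in the CT0 livers and 5.94 to 8.80 in the CT12 livers, where 1 of them was at 0 in all 3 livers, with 5 of 7 tested called lower. The corresponding sums were 146 to 202 and 109 to 124 RPKM for stellate markers (2 of 9 called lower), 114 to 143 and 80.5 to 86 for endothelial markers (2 of 8 called lower), 150 to 199 and 94.9 to 144 for Kupffer cell markers (0 of 8), and 138 to 328 and 95.3 to 169 for erythroid markers (1 of 4 called lower). Hspa8 and Hspa1b rose in the same comparison, and the part of these cells in their change was not tested. In the Nr1d1 controls neutrophil markers ranged in sum from 1.62 to 16.3 RPKM in the CT0 livers and from 3.47 to 19 in the CT12 livers, and none of the marker lists had a called gene in that comparison. Each range spans both replicates, whose RPKM scales differ, so the ranges do not compare the 2 times. Of these 8 markers, 3 were at 0 in both CT0 livers and 1 in both CT12 livers.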

How the data were processed

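RNA-seq values were deposited as RPKM per Ensembl transcript. Per the submitters' processing notes the authors used TopHat2, Bowtie (not named for replicate 2 of the Nr1d1 experiment) and bedtools 2.19.1 with mm9; per the labels' protocols libraries were made with a TruSeq RNA kit. The sources used here give no annotation, strand setting or handling of shared reads. Of 46585 transcripts in every library, the one with the highest mean log2 value stood for each symbol. Log2(RPKM + 0.5) was fitted with limma 3.58.1 in R 4.3.3 (mean trend; 4 group means per experiment; two-sided) for genes with a mean of at least 0.5 RPKM, with the call threshold at 0.05 after Benjamini-Hochberg adjustment over every gene tested. A fold on this scale understates the change of low genes. The labels speak of pairs of knockout and wild-type mice but do not say what a replicate number shares. Deviations of libraries with the same number correlated at 0.817 to 0.878 in the Nr1d1 experiment, where number and library layout coincide, so its fit has the replicate number as a block; the Bmal1 fit has none. Nothing more says how the samples of a group relate, so p-values measure the spread between these samples. The fit was tested on simulated data. Recovered reads hold to a tolerance of 0.05 (90.7% of genes) and up to a common factor; they are counting depth only, and Hspa8 was too abundant to resolve. The members and lists were chosen with earlier results of these data known. All 10 genes are reported in every comparison; of the wider lists, called genes (at most 6 per comparison); likeness is the 5 highest Pearson r. The 6 4C libraries were not used. Alternatives were the pseudocount, the filter, TMM and quantile scaling, the sum over transcripts, only the compared groups, the replicate block and leaving out each library.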

Additional observations from a re-analysis of the deposited data

How the results depend on the processing

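No result changed direction past the threshold. Counts of the 10 genes called moved as follows. When the fit held the compared groups alone, 3 were called between Bmal1 genotypes at CT12 (Hspb1, Cirbp, Hsph1), 4 over time in Bmal1 controls (Dnajb1, Hspa1b, Hspa8, Rbm3), 1 between Nr1d1 genotypes at CT0 (Hspb1) and 2 over time in Nr1d1 controls (Hspa1b, Hspb1). With no filter, 1 was called over time in Bmal1 controls (Hspa1b) and 0 in Nr1d1 controls. Leaving out each library gave 0 to 1 between Bmal1 genotypes at CT12, 0 to 4 over time in Bmal1 controls, 0 over time in Nr1d1 controls, and 0 to 1 for the difference between experiments. Without both CT0 livers numbered 1, a setting chosen after seeing the data, 7 were called over time in Bmal1 controls. Fewer libraries or more genes enter some of these fits, and the cause of the moves was not tested. The main fit assumes 1 spread per gene for all 4 groups, which the values did not always show. Cirbp had an SD of 6.73 RPKM in Bmal1 controls at CT0 and 0.79 at CT12. Its genotype difference at CT12 was 0.61 in both fits. The SE was 0.30 in the fit of all 4 groups and 0.11 with the compared groups alone. Scaling by TMM or quantiles, the pseudocount, the stricter filter and the sum over transcripts moved no count. The replicate block added Hsph1 (adjusted p = 0.046 by limma) to the Bmal1 control time comparison, for 3 called, and changed no other call there; same-numbered Bmal1 libraries correlated at -0.0599 to 0.12, so the numbers were not read as pairs. With no replicate block in the Nr1d1 experiment 0 genes were called over time in controls, and no gene of all 12738 in any comparison. Depth limits Hspb1 in livers labelled Bmal1 knockout, where it rests on 12 to 33 reads per library, and Hspa1a, with 0 to 13. With 1 library left in a group, that library is assumed to vary like the other groups.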
